A study of Mus musculus with 17 samples.

Results

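The genes described here are Prm1, Prm2, Prm3, Tnp1 and Tnp2, the protamine and transition protein genes of the mouse. They were chosen by name, as the start sites whose RefSeq transcript belongs to 1 of these symbols, and no measured value entered the choice. All 5 were among the 21399 named genes of the pileup tables, and 3 (Prm1, Tnp1 and Tnp2) were among the 16089 of the count tables, both explained below. The study mapped DNA that micrococcal nuclease (MNase) leaves intact in embryonic stem (ES) cells and in sperm. MNase cuts accessible DNA, so the fragments it leaves come from DNA that was protected, in most cells by nucleosomes.

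ES cells were the E14 line, of 129 X Ola background, grown without feeder cells in serum and LIF. Sperm of C57/B6J mice aged 10 weeks were collected by swim-up from epididymis (its caudal end) and vas deferens, and were fixed with 1% formaldehyde for 15 min. Permeabilized nuclei were digested for 5 min, with 1000 times more enzyme per cell for ES cells than for sperm, and a spin at 5000 g separated a supernatant from a pellet. The ES cell library and the standard sperm library both held the supernatant. A titration of sperm added 4 unspun digests (0.5, 2, 10 and 50 units of MNase), 4 supernatants and 4 pellets (1, 5, 20 and 100 units each). The sources used here do not say how many mice stand behind a sperm library. Files of 14 of the 17 samples were used, and 3 samples (an unspun ES cell digest, a sonicated input and a histone H3 immunoprecipitation, both of sperm) were not analysed here.

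Each group held 1 library, so no comparison has a replicate check and no p-value is given. Intervals are exact 95% intervals that cover counting error only, because there is 1 library per group. The reads carry no molecular identifiers, so copies of a fragment cannot be told from separate fragments. Such copies would make the intervals too narrow. Cell type, strain, fixation (stated for sperm alone), amount of enzyme and library cannot be told apart in the comparison of sperm with ES cells. The purity of either preparation cannot be read from these genes, because every cell type carries the same DNA.

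During the last steps of sperm formation, histones are removed from most of the genome. Transition proteins, encoded by Tnp1 and Tnp2, take their place for a time, and protamines, encoded by Prm1 and Prm2, then pack the DNA of the mature sperm head. Prm3 lies between Prm2 and Tnp2 and encodes an acidic protein that is grouped with the protamines by its place in the cluster. The genes are transcribed in round spermatids, under the activator CREM, and their messenger RNAs are stored before translation. Mature sperm are thought to transcribe none of them, and ES cells do not normally use them.

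The start sites of Prm1, Prm2, Prm3 and Tnp2 form a cluster on chromosome 16, and that of Tnp1 lies alone on chromosome 1. In the mm9 build used by the tables, all are on the minus strand. The start sites are at position 10796916 for Prm1, 10792190 for Prm2, 10791007 for Prm3 and 10788748 for Tnp2, and at position 73062473 of chromosome 1 for Tnp1. Along the direction of transcription, Prm2 starts 4726 bp after Prm1, Prm3 5909 bp after it, and Tnp2 8168 bp after it. Socs1, an inhibitor of cytokine signalling, follows 3119 bp after Tnp2. The authors classed the promoter of Prm1 as HCP and those of Tnp1 and Tnp2 as ICP, read here as high and intermediate CpG content, and Prm2 and Prm3 are not classed.

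The 120 bases before each start site are shown because the pileup over them is described below and because they hold the elements for which these promoters are known. Sequences are from RefSeq's GRCm38.p6 build, minus strand, 5′ to 3′, at chr16:10796824-10796943 for Prm1, chr16:10792106-10792225 for Prm2, chr16:10790915-10791034 for Prm3, chr16:10788656-10788775 for Tnp2 and chr1:73015900-73016019 for Tnp1. Capitals mark matches to TGANNTCA, a loose form of the CREM site, and to TATATA or TATAAA, forms of the TATA box.
Prm1: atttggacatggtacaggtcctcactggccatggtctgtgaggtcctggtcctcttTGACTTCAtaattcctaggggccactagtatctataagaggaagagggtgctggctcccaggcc
Prm2: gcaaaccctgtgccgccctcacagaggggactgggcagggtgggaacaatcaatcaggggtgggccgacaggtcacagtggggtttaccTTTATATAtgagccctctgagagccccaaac
Prm3: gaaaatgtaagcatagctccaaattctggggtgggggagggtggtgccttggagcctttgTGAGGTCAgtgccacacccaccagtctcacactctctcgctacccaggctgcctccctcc
Tnp1: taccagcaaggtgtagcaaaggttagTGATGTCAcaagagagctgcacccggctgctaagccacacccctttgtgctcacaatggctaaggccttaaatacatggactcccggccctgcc
Tnp2: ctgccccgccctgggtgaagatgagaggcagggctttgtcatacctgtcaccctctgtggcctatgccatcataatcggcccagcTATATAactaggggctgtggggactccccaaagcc

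Matches were sought on both strands over 300 bases, from 250 before to 50 after the start, and positions count back from -1 at the base before the start site. TGANNTCA matched in Prm1 at -64 to -57, in Prm3 at -60 to -53 and in Tnp1 at -94 to -87, and 14.3% of 27025 promoters held it within the same 300 bases. The full palindrome TGACGTCA, a special case of it, was in 0 of the 5 and in 1.88% of all promoters. TATATA matched in Prm2 at -29 to -24 and in Tnp2 at -35 to -30, against 5.94% of all promoters. TATAAA matched in Prm2 alone of the 5, on the other strand and overlapping the first match, at -31 to -26, against 14.2%. A match is a description of letters and shows no binding.

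The deep libraries were read from tables of fragment pileup. Such a table gives a pileup value for each of 200 bins of 20 bp, over 2000 bp to each side of a start site. It comes from fragments of about the length that a nucleosome protects. The value is not a count of fragments, since an isolated fragment reaches 2 in a bin. An isolated fragment sums to 21.9 and spreads over 260 bp or more in these tables, so a profile is smoother than the fragments, and sums were divided by 21.9 to give fragment equivalents, called fragments below. An average start site held 32.3 fragments within 1000 bp to each side in the ES cell library and 21.7 in that of standard sperm, but only 0.213 to 1.12 in the titration libraries. The deep libraries therefore carry the profiles of single genes, and the titration libraries carry only sums.

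Around the 5 start sites, sperm kept about as large a share of its fragments near start sites as ES cells did, within counting error. By point value, Tnp1 and Prm2 stood above an average start site in both cell types, while Prm1, Prm3 and Tnp2 stood below it in both. No interval was computed for these levels, and Prm2 in sperm stood at only 1.09 times the average. No member differed by 2-fold, and the interval of each difference held 0 in windows of 1000 bp to each side.

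Prm1, the protamine shared by mammals, held 26.8 fragments in ES cells and 14.8 in sperm, which is 0.828 and 0.683 times the average start site of the same library. Prm2, the other protamine of mouse sperm, held 42.7 and 23.7 fragments, or 1.32 and 1.09 times the average. Prm3 held 25.3 and 10.6 fragments, or 0.783 and 0.489 times the average. Among the protamine genes Prm2 was thus the highest in both libraries and Prm3 the lowest.

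Tnp1, the more abundant transition protein gene in spermatids, held 40.9 fragments in ES cells and 26.3 in sperm, or 1.27 and 1.21 times the average. Tnp2 held 20.0 and 17.3 fragments, or 0.621 and 0.797 times the average. The order was Prm2, Tnp1, Prm1, Prm3, Tnp2 in ES cells and Tnp1, Prm2, Tnp2, Prm1, Prm3 in sperm. Counts of this size do not separate neighbours in either order.

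The share of fragments was compared between the libraries as a log2 ratio of sperm over ES cells. A share is of the signal summed over the 1000 bp windows of all start sites used, not of the whole library. To each sum 1 fragment was added, which pulls ratios toward a value above 0, because the ES cell library is deeper. The ratio was -0.24 for Prm1 (interval -1.30 to 0.69), -0.25 for Prm2 (-1.06 to 0.48) and -0.61 for Prm3 (-1.87 to 0.41). For the transition protein genes it was -0.04 for Tnp1 (-0.83 to 0.68) and 0.37 for Tnp2 (-0.66 to 1.36). The intervals were computed without the added fragment. With windows of 2000 bp to each side, Prm1 had an interval below 0, at -0.55 (-1.13 to -0.03), and no other alternative took the interval of a single gene off 0. Tnp1 changed sign, to 0.02 with 5 fragments added and to 0.04 centred on the median of all genes. The median of all genes moved as well with 5 fragments added, from -0.09 to 0.01. The intervals leave room for differences of more than 2-fold downward at Prm1, Prm2 and Prm3 and upward at Tnp2.

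**Figure D1:**
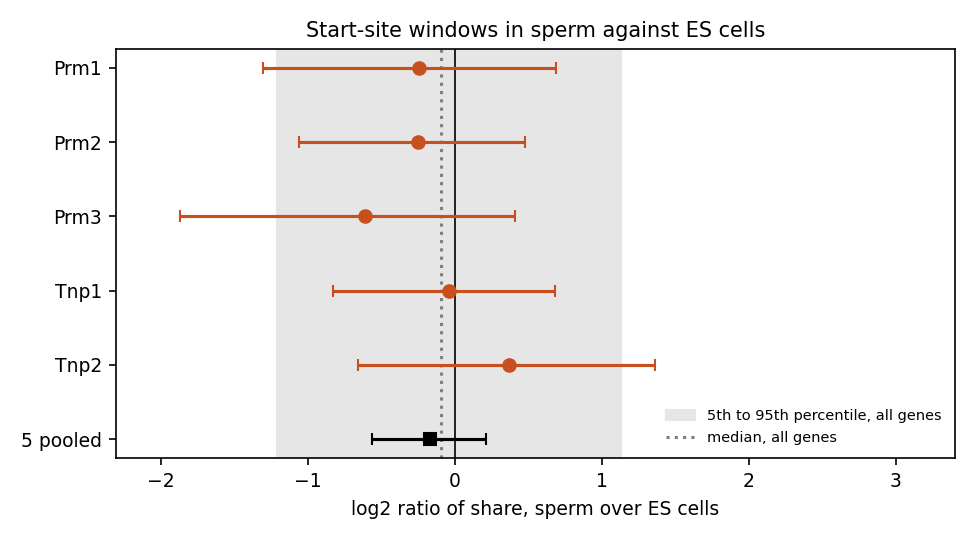
The horizontal axis is the log2 ratio of the share of fragments within 1000 bp of the start site, sperm over ES cells. Points are the 5 genes and the square is their sum, bars are exact 95% counting intervals from 1 library per group, and the grey band spans the 5th to 95th percentile of 20521 genes (-1.21 to 1.13). Every bar crosses 0.

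Of the 5 genes, 4 had a lower and 1 a higher share in sperm (Tnp1 changes side as given above), and of 20521 genes with at least 10 fragments, 11285 had a lower one. The median of the 5 was -0.24, and the median of all genes was -0.09. None was at or past 2-fold, against 6.89% of genes at least 2-fold higher in sperm and 8.89% at least 2-fold lower. None had an interval above or below 0, against 11.8% of genes above and 11.4% below. Genes classed like Prm1 (HCP) had a median of -0.25, and genes classed like Tnp1 and Tnp2 (ICP) had a median of 0.03.

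Summed over the 5 windows, the log2 ratio was -0.17 (-0.56 to 0.21) with nothing added. The windows of Prm2 and Prm3 share 817 bp. With that stretch counted once, the ratio was -0.08 (-0.47 to 0.32). The chromosome 16 cluster alone gave -0.08 (-0.56 to 0.39). On this scale the interval of the sum counted once leaves out a loss of more than 1.39-fold in sperm, as far as counting error goes. The scale matters, because each share is relative to its own library. Scaled to low-CpG start sites instead of all start sites, the sum over the 5 windows was -0.48 (-0.87 to -0.10), an interval below 0. That sum counts the stretch shared by Prm2 and Prm3 more than once, and this scaling was not run with it counted once. The scaling also moved the median of all genes by -0.31.

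The profiles also differed at and just after the start site, where each gene held few fragments. Prm1 was empty there in both deep libraries, Tnp2 and Prm3 were empty in sperm alone, and Prm2 and Tnp1 held fragments across the start in both. Prm1 had an empty run from -20 to 520 bp in ES cells, 540 bp long, and from -60 to 260 bp in sperm, 320 bp long. In sperm, Prm3 was empty from -140 to 60 bp and Tnp2 from 0 to 260 bp.

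From 0 to 300 bp after the start, Prm1 held 0 fragments in ES cells and 0.183 in sperm, where parts of a fragment come from pileup that reaches in from outside. Prm2 held 3.06 and 1.37, Prm3 1.51 and 1.19, Tnp1 3.79 and 1.14, and Tnp2 1.46 and 0.0913. An average gene held 3.32 and 1.87 there. Empty DNA at the start was not rare. The first bin after the start, which the empty runs above include, was empty in 35.4% of genes in ES cells and 40.6% in sperm. From 0 to 300 bp, 16.8% of genes in ES cells and 24.3% in sperm had no signal at all.

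The same DNA of Prm1 was not empty in every sperm library. In the unspun digest with 10 units, 1 fragment spread from -80 to 180 bp across the Prm1 start and another from 340 to 600 bp. Summed over the 4 unspun doses, Prm1 held 0.731 fragments from 0 to 300 bp and an average start site held 0.476. These are single fragments, and whether reads can be placed throughout the empty run was not tested. At Tnp2, 1 fragment of the same 10-unit library reached from -180 to 80 bp, into its empty run in standard sperm. At Prm3, 1 fragment of that library reached from -340 to -60 bp, also into its empty run.

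In the 200 bp before the start, where the printed elements lie, Prm2 stood at 1.66 times the average bin in ES cells and 0.912 times in sperm. Tnp1 stood at 1.08 and 0.826 times the average bin. Prm1 stood at 0.385 and 0.189, Prm3 at 0.708 and 0.0516, and Tnp2 at 0.149 and 0.671. The median gene stood at 0.422 and 0.379. Prm2 and Tnp1 were thus above the median gene in both libraries, Prm1 was below it in both, and Prm3 and Tnp2 changed sides. Each of these zones held fewer than 10 fragments in the libraries together, so no interval is given.

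Among the bins that hold the printed elements, those of Prm2 and Tnp1 were the highest in both libraries. Values here are pileup, in which an isolated fragment reaches 2. The TATATA of Prm2 lay in a bin with a pileup of 10 in ES cells and 5 in sperm. The TGANNTCA match of Tnp1 lay in a bin with 9 and 5. The match in Prm1 crossed from a bin with a pileup of 3 and 1 into a bin with 1 and 0. That in Prm3 lay in a bin with 5 and 0, and the TATATA of Tnp2 in a bin with 2 and 1. Sequence and pileup come from different builds here and were joined by distance from the start site, which for Prm2 differs by 8 bp between the builds relative to the cluster.

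**Figure D2:**
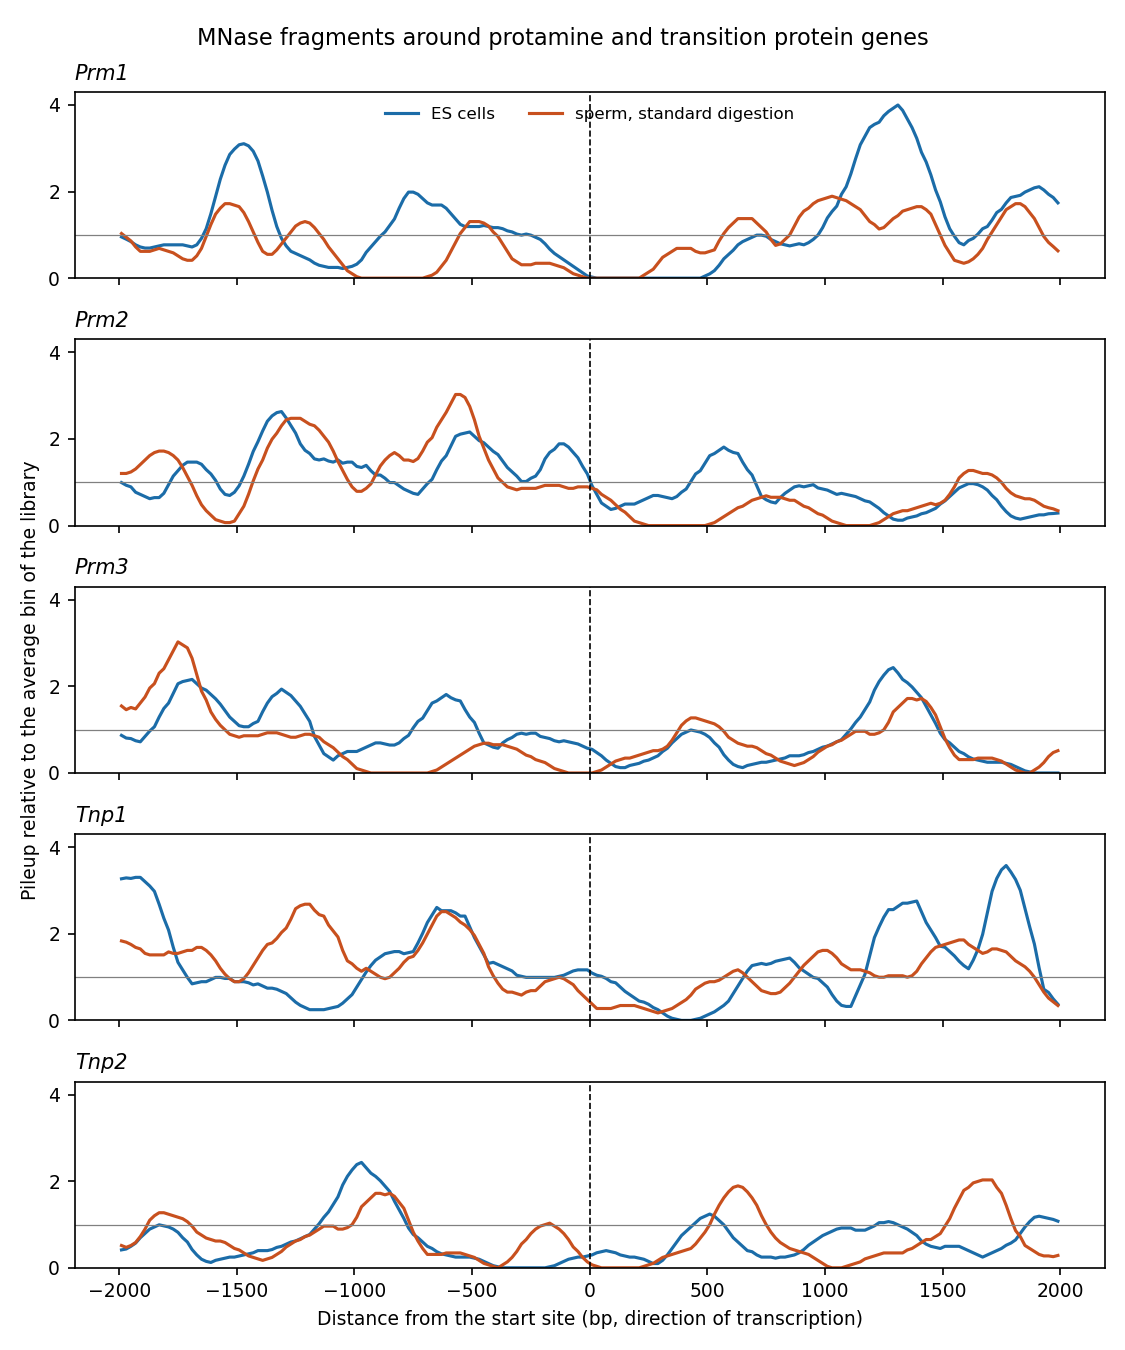
Each panel shows 1 gene, with distance from its start site in bp along transcription on the horizontal axis and pileup, relative to the average bin of the library and smoothed over 5 bins, on the vertical axis. Lines are single libraries of ES cells and standard sperm. Prm1 falls to 0 at its start in both, and its highest point in ES cells, 4.00 times the average bin, lies at 1310 bp.

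Farther from the start, each gene had maxima well above the average bin. The ES cell profile of Prm1 peaked at 1310 bp, at 4.00 times the average bin, and from 1000 to 2000 bp it held 40.5 fragments, more than 96.5% of genes. Sperm held 16.6 fragments there and peaked at 1030 bp, at 1.89 times, and the ratio of that zone was -0.82 (-1.74 to 0.04).

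Prm2 peaked at -1310 bp in ES cells (2.63 times) and at -570 bp in sperm (3.03 times), with a lower maximum of ES cells at -510 bp. Prm3 peaked at 1290 bp in ES cells (2.43 times). Its sperm peak at -1750 bp is the -570 bp peak of Prm2, seen from a start site 1183 bp away. The shared bins of the windows of Prm2 and Prm3 held equal values for 92.2% of bins in ES cells and 92.9% in sperm, so these genes do not give independent profiles.

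Tnp1 peaked at 1770 bp in ES cells (3.58 times) and at -1210 bp in sperm (2.68 times), and both libraries had a maximum upstream of the start, at -650 bp in ES cells and -630 bp in sperm. Tnp2 peaked at -970 bp in ES cells (2.43 times) and at 1670 bp in sperm (2.03 times), with a maximum of sperm at -910 bp beside the ES cell peak. In no member did the highest point of either library lie within 300 bp of the start site. How many of all genes share this was not counted. The median gene was also low from 0 to 300 bp, at 0.406 times the average bin in ES cells and 0.241 times in sperm. The highest point of Tnp1 in ES cells is not firm, since smoothing over 9 bins put it at -1970 bp.

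The correlation of the ES cell and sperm profiles over the 200 bins of a gene was 0.55 for Prm1, 0.59 for Prm2, 0.60 for Prm3, 0.30 for Tnp1 and 0.31 for Tnp2. The median of 19749 genes was 0.35. Neighbouring bins share fragments, and Prm2 and Prm3 share DNA, so these values are descriptions.

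Zone ratios use shares of the signal over the whole 2000 bp to each side, with nothing added. Their scale therefore differs from that of the 1000 bp windows. In 30 zones (6 for each gene), 20 held at least 10 fragments, and 2 of those had an interval below 0 and 0 an interval above it. From -1000 to -200 bp, Prm1 held 18.4 fragments in ES cells and 4.47 in sperm, a ratio of -1.57 (-3.47 to -0.04). In the same zone Prm3 held 14.7 and 2.92, a ratio of -1.86 (-4.33 to -0.02). Of all genes, 8.26% had an interval below 0 in that zone and 8.30% above, and both upper bounds lie close to 0. Most of the Prm3 zone is also the DNA from 300 to 1000 bp after the Prm2 start, which held 13.6 and 2.92 fragments, a ratio of -1.74 (-4.23 to 0.12). In the zone from 300 to 1000 bp, 8.52% of all genes had an interval below 0 and 5.94% above. From 1000 to 2000 bp these shares were 7.20% and 10.7%, and from -2000 to -1000 bp they were 6.52% and 11.5%.

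**Figure D3:**
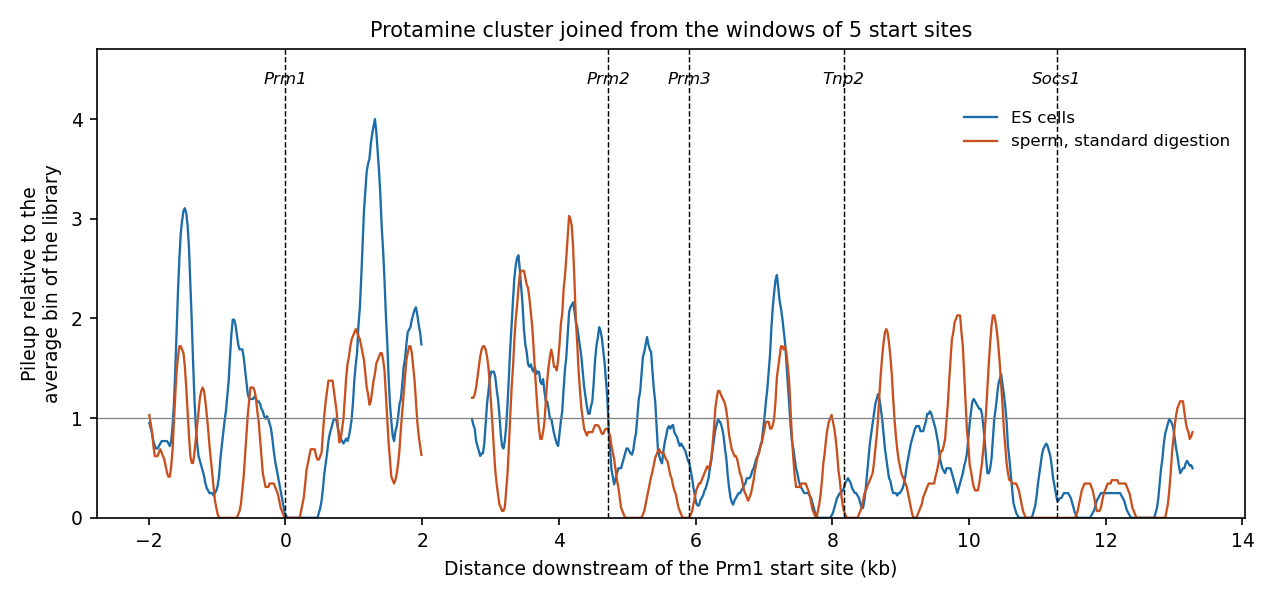
The horizontal axis is distance downstream of the Prm1 start site in kb, and the vertical axis is pileup relative to the average bin, smoothed over 5 bins, for 1 library of ES cells and 1 of standard sperm. The windows of 5 start sites (dashed lines) were joined, and the break between Prm1 and Prm2 is a gap of 726 bp that no window covers. Both lines fall at the Prm1 start, and the ES cell peak 1310 bp after it is the highest point of the cluster.

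The genes next to the cluster also had intervals that held 0. Socs1 held 12.1 fragments in ES cells and 9.18 in sperm, a ratio of 0.22 (-1.23 to 1.55). Rmi2, a gene of the complex that resolves crossed DNA strands, starts 38235 bp before Prm1 and held 38.4 and 23.9 fragments, a ratio of -0.09 (-0.91 to 0.67). No other named start site lay within 50 kb of a member, and none lay within 50 kb of Tnp1.

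The genes with the most similar joined profiles of ES cells and sperm, over 400 bins, were Nipal2 (r = 0.726), P4ha2 and Tsen54 for Prm1. They were Cd55 (r = 0.706), Ywhaz and Peg12 for Prm2, and D11Wsu47e (r = 0.708), Nol4l and Nrsn2 for Prm3. For Tnp1 they were Rab21 (r = 0.671), Mrc2 and Myorg, and for Tnp2 Plekha5 (r = 0.634), Pms2 and Numb. The search covered 19742 genes, or 19744 for Tnp1, with at least 20 fragments per library over the whole window of 2000 bp to each side, and the likeness is of profile shape alone.

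The sperm titration was read as sums within 1000 bp of the start site, relative to an average start site of the same library. The unspun libraries have the same kind of pileup table and hold all 5 genes. The supernatant and pellet libraries have tables of counts in bins of 50 bp over 5000 bp to each side and hold Prm1, Tnp1 and Tnp2. Of 44 pairs of a gene and a library, 17 were at 0. A value of 0 was common among all start sites too. The share of start sites at 0 was 43.3% to 51.1% in the unspun libraries and 37.9% to 67.5% in the supernatants. In the pellets it was 46.1% at 100 units and higher at each lower dose. The zeros given below therefore do not set these genes apart. Of the 44 pairs, 2 had an interval above 1.

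Those 2 were in the pellet, the material that the spin brought down. Tnp2 in the 5-unit pellet held 3.72 fragments, 9.50 times the average (2.43 to 25.1), and 0.995% of start sites held as much or more. Prm1 in the 20-unit pellet held 3.33 fragments, 7.28 times the average (1.68 to 20.2), and 1.63% of start sites held as much or more. In these libraries 3.46% and 2.82% of all start sites had an interval above 1. The labels of these 2 samples also carry other units in their descriptions, and the title and units field were followed.

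Prm1 was uneven over the pellet doses, at 4.69, 5.70, 7.28 and 0 times the average at 1, 5, 20 and 100 units. Tnp2 was at 2.35, 9.50, 0 and 0 times, and Tnp1 at 0, 0, 0 and 1.17 times. A value of 0 allows up to 3 fragments, which is 14.1 times the average for Tnp1 at 1 unit and 3.15 times for Prm1 at 100 units. In the 1-unit and 100-unit pellets, where none of the 3 genes had an interval above 1, 4.55% and 3.29% of start sites did. Prm1 thus held signal at the lower 3 doses and Tnp1 at the highest dose alone, in a range that counts this low do not separate.

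Summed over the 4 pellet doses, Prm1 held 6.56 fragments, 3.26 times the average (1.26 to 6.87), where 4.49% of start sites had an interval above 1. That call rests on the window and on single libraries. Over the whole span of 5000 bp to each side Prm1 was at 1.52 times (0.813 to 2.58), and it was at 2.67 times (0.777 to 6.60) without the 5-unit pellet and 2.08 times (0.463 to 5.85) without the 20-unit pellet. Tnp2 was at 2.10 times (0.597 to 5.24) and Tnp1 at 0.554 times (0.0195 to 2.87). Tnp2 went the other way over the whole span, with an interval above 1 at 1.86 times (1.07 to 3.01), where 7.15% of start sites had one. The whole spans of Prm1 and Tnp2 overlap, and that of Tnp2 takes in the starts of Prm2 and Prm3. Tnp2 also depended on single libraries, at 0.307 times (0.000297 to 2.88) without the 5-unit pellet and 3.97 times (1.13 to 9.94) without the 100-unit pellet. The sum of the 3 genes was 1.97 times (1.01 to 3.45). Over the whole span it was 1.46 times (1.03 to 2.00), with the overlap of Prm1 and Tnp2 counted more than once. Within 1000 bp that excess ended without any 1 of the 3 pellets of lower dose. The value was 1.92 (0.939 to 3.50) without the 1-unit pellet, 1.22 (0.446 to 2.67) without the 5-unit pellet and 1.83 (0.820 to 3.54) without the 20-unit pellet. It was 3.39 (1.68 to 6.09) without the 100-unit pellet, which was the deepest of them.

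In the supernatant, the fraction also used for the deep libraries, the order was another. Tnp1 held signal in all 4 libraries, at 2.47, 1.48, 1.43 and 1.95 times the average at 1, 5, 20 and 100 units, and 1.88 times in the sum (0.692 to 4.09). Prm1 was at 0, 0, 0.953 and 0.973 times, and Tnp2 was at 0 in 3 of the 4 and at 1.62 times at 100 units. The sum of the 3 genes was 1.01 times the average (0.476 to 1.87). None of the 3 had an interval above 1 in the sum, against 4.57% of start sites, or in a single library, against 4.99%, 3.83%, 2.63% and 2.90% at 1, 5, 20 and 100 units. Over the whole span Tnp1 had an interval above 1, at 1.56 times (1.01 to 2.30), as did 1153 of 16482 start sites (7.0%), and Prm1 was at 1.33 times (0.825 to 2.02).

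In the unspun digests Prm1 was at 2.46, 2.46, 3.03 and 1.48 times the average at 0.5, 2, 10 and 50 units, and 2.36 times in the sum (0.953 to 4.86). Prm3 was at 0.560, 1.23, 1.52 and 1.48 times, and 1.17 times in the sum (0.279 to 3.18). Prm2, the highest protamine gene of the deep libraries, was at 0 in 2 of the 4 doses and at 0.522 times in the sum (0.0403 to 2.19). Tnp1 was at 0.936 times in the sum (0.178 to 2.84) and Tnp2 at 0.675 times (0.0824 to 2.43). The 5 genes together were at 1.13 times the average (0.658 to 1.82), and 3.12% of start sites had an interval above 1 while 0 of the 5 did. In single unspun libraries 0 of the 5 did, against 1.59%, 1.51%, 1.18% and 1.09% of start sites at 0.5, 2, 10 and 50 units. Over the whole span of 2000 bp to each side 1 of the 5 did, Prm1 at 2.05 times (1.06 to 3.57), against 4.83% of start sites.

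**Figure D4:**
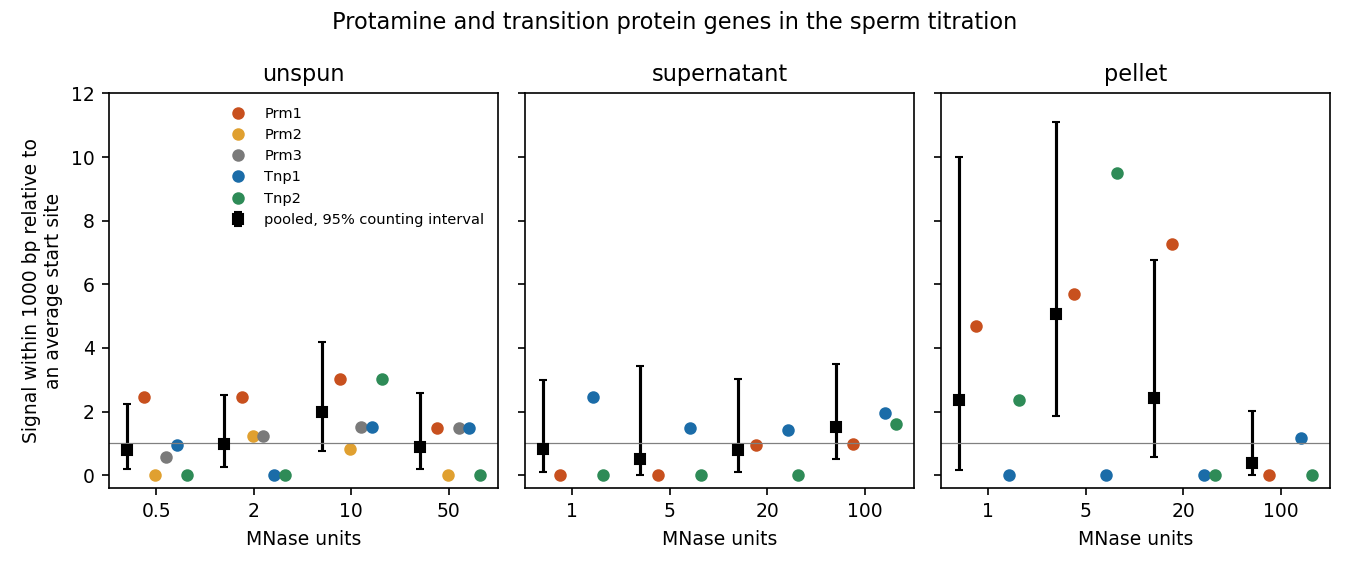
The horizontal axis gives MNase units in the 3 sperm series and the vertical axis gives signal within 1000 bp of the start site relative to an average start site of the same library. Circles are genes, squares their sum with an exact 95% counting interval, and the supernatant and pellet hold 3 of the 5 genes. The highest circle is Tnp2 in the 5-unit pellet at 9.50, and many circles lie at 0.

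Other genes that act in the exchange of histones for protamines were taken as a list of 38, of which 37 were measured. Of these, 19 had a lower and 18 a higher share in sperm, and the median ratio was -0.04 against -0.09 for all genes. In 3 the interval was below 0 and in 3 above, where all genes had 11.4% and 11.8%.

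Genes that drive transcription in spermatids had a median ratio of 0.34, with 5 of 6 above 0, where 9236 of all 20521 genes were above 0, and all 6 intervals held 0. The highest ratio was that of Tbpl1, a relative of the TATA-binding protein, at 1.00 (-0.11 to 2.22). Crem, the activator of the protamine genes, held 67.3 fragments in ES cells and 56.3 in sperm, a ratio of 0.32 (-0.22 to 0.85). Genes that store the messenger RNAs or act in their translation had a median of 0.03, and Papolb, a testis poly(A) polymerase, had an interval below 0, at -0.75 (-1.51 to -0.10).

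Of 7 histone variant genes measured, 5 had a ratio above 0, against 9236 of all 20521 genes. Their median was 0.15, and 1 interval left out 0, that of Hist1h1t. Hist1h2aa (-0.09) and Hist1h2ba (0.11) start at positions 24026330 and 24026025 of chromosome 13. Their windows share most of their DNA, though they count as separate genes here and in the whole list. Hist1h1t, the linker histone of the testis, held 27.4 fragments in ES cells and 31.9 in sperm, a ratio of 0.79 (0.01 to 1.59). Genes that mark or remove histones had a median of -0.16 and held both extremes of the list. Epc1, a subunit of the NuA4 acetyltransferase complex, held 21.8 and 38.8 fragments, a ratio of 1.38 (0.61 to 2.24). Kat5, the catalytic subunit of the same complex, held 55.1 and 12.9, a ratio of -1.43 (-2.52 to -0.62).

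Genes that act on DNA breaks had a median of -0.34. Parp2, a poly(ADP-ribose) polymerase, was at 0.87 (0.06 to 1.72), and Top2b, the topoisomerase linked to the breaks of elongating spermatids, was at -0.99 (-2.76 to 0.23). The kinases, phosphatase and chaperone of protamines and transition proteins also had a median of -0.34. Hspa2, the chaperone needed for the placing of transition proteins, held 31.7 and 10.1 fragments, a ratio of -0.98 (-2.26 to -0.02).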

How the data were processed

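The series holds MNase sequencing of mouse ES cells and sperm, 1 library per group, and groups come from the titles and units in the labels. The submitters' processing notes name Bowtie, SAMtools 0.1.16 and the mm9 build. The authors deposited whole-number pileup signal per 20 bp bin for the libraries of ES cells, of standard sperm and of unspun digests, from fragments of 135 to 165 bp per the file names. For the supernatant and pellet libraries the authors deposited counts per bin. Their headers step by 20 bp, but where windows of 2 start sites overlap the values matched for 68.0% to 75.3% of bins at 50 bp and for at most 3.16% at 20 bp, so 50 bp was used. Neither kind is scaled to depth, and the sources used here say nothing of duplicates.

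Start sites listed more than once were taken once (24084 of 28015 and 16482 of 16493 remained), and RefSeq identifiers were matched to symbols through the GRCm38.p6 gene table. For a gene with several start sites, values from the deep libraries use the site with the highest mean share in those libraries. Each member has a single site, so the values over all genes include sites picked for high signal and those of the members do not. Sums were divided by the signal of an isolated fragment, 21.9 in the pileup tables and 2.69 to 2.74 in the count tables, or 2.01 and 2.00 in the 1-unit libraries, where signal was narrower. Log2 ratios use shares of the signal summed over the same window of all start sites used, a pseudocount of 1 fragment, and genes with at least 10 fragments. Zone ratios use shares of the signal over the whole 2000 bp to each side and no pseudocount. Because the pseudocount pulls ratios toward a value above 0, lowered ones most, the exact binomial and Poisson intervals (95%) use none. The scripts were tested on simulated data with known shifts. A first form of that test, with few genes and the pseudocount, missed its tolerance, and it was replaced by repeated draws judged without the pseudocount. Alternatives were other windows, pseudocounts, scalings, smoothing and left-out genes or libraries.

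Named genes are the 5 members, start sites within 50 kb, the 3 most similar profiles of each (at least 20 fragments per library within 2000 bp to each side), and from the exchange list the 3 highest and 3 lowest ratios and any with an interval off 0. Crem was added after its value was seen, and Hist1h2aa and Hist1h2ba are named because their windows overlap. The members and lists were chosen with earlier results of these data known. Python 3.11.15, numpy 2.4.6, pandas 2.3.3, scipy 1.17.1 and matplotlib 3.10.9 were used.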

Additional observations from a re-analysis of the deposited data

How the results depend on the processing

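No paired analysis was possible because the labels give no replicate numbers and each group is 1 library. Supernatants and pellets share 4 doses, and their values stand side by side by dose, with no test of the difference. For the ratio of sperm to ES cells, 30 of 30 alternatives for single genes and 10 of 10 for the sum stayed inside the main interval, which is wide. Calls did change within it. Prm1 was at -0.55 (-1.13 to -0.03) with windows of 2000 bp. The sum was at -0.48 (-0.87 to -0.10) scaled to low-CpG start sites, with DNA shared by Prm2 and Prm3 counted more than once. Tnp1 turned positive (0.02 with 5 fragments added, 0.04 centred on the median). The share of all genes at least 2-fold higher in sperm was 16.3% with windows of 200 bp and 4.19% with 2000 bp, and the share at least 2-fold lower was 4.23% with 2000 bp, against 6.89% and 8.89%. Of 76 alternatives for the titration sums, 70 stayed inside the interval. The sum was 0 with windows of 500 bp or without Tnp1 in the 1-unit and 5-unit supernatants, without Prm1 in the 20-unit pellet and without Tnp1 in the 100-unit pellet. In the 5-unit pellet the sum of 5.07 (1.85 to 11.1) was 4.37 (0.766 to 13.7) with windows of 500 bp and 2.85 (0.407 to 9.69) without Tnp2, so that its excess over 1 was lost. The highest bin of Tnp1 in ES cells moved from 1770 to -1970 bp with smoothing over 9 bins, and 19 of 20 alternatives for highest bins moved it by 140 bp or less. The cause was not tested. Sums over the whole span and without single titration libraries were chosen after seeing the data. Of these 63 alternatives 59 stayed inside the interval, but the whole span ended the excess of Prm1 in the pellets and gave an interval above 1 to Prm1 in the unspun digests, Tnp1 in the supernatants and Tnp2 in the pellets. Tnp2 was 0 in the unspun digests without 10 units and in the supernatants without 100 units, as was Tnp1 in the pellets without 100 units. The sum of the 3 genes in the supernatant was 1.07 (0.453 to 2.14) without the 1-unit library. Depth limits these results, with 32.3 and 21.7 fragments per average start site in the deep libraries and at most 1.12 in the titration.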

Other observations

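The authors' class of Prm1 and its sequence stood apart. Prm1 is classed as HCP, but the 300 bases from 250 before to 50 after its start in RefSeq's GRCm38.p6 build hold 1 CpG, fewer than in most promoters (percentile 5.78). Of 7914 HCP genes with a promoter sequence, 23 (0.291%) hold 1 or 0 CpG there, and the median HCP gene holds 22. Tnp1 holds 6 and Tnp2 holds 4, beside a median of 6 for their class ICP. Prm2 holds 3 and Prm3 holds 4. The sources used here give neither the limits of the classes nor the window behind them, and Prm1 was singled out after its value was seen.

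Prm1 was below an average start site in both deep supernatant libraries (0.828 and 0.683 times) and above it in the summed pellets (3.26 times, 1.26 to 6.87) and unspun digests (2.36 times, 0.953 to 4.86). No interval was computed for the values of the deep libraries. In the titration supernatants it was at 0.572 times (0.0598 to 2.17). Over the whole span the gap between pellets and supernatants nearly closed, with 1.52 times (0.813 to 2.58) in the pellets and 1.33 times (0.825 to 2.02) in the supernatants. The unspun digests, over their whole span of 2000 bp to each side, stayed above the average at 2.05 times (1.06 to 3.57). The intervals of pellet and supernatant overlap in both windows, and the difference between them was not tested.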
